A study of Mus musculus with 9 samples.

Results

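RING1B peaks at gene 3′ ends were taken from the peak lists of Eed+/+ and Eed-/- mESCs, 1 list per genotype. A peak was included when it lay on chromosomes 1 to 19, its deposited location named a 3′ UTR or the 1000 bp downstream of a gene end, and it lay more than 1000 bp from exon 1 of the nearest gene. This gave 50 of 4157 peaks, 36 of 2347 in Eed+/+ and 14 of 1810 in Eed-/-. The location and the distance were found to be those of the midpoint of the peak, so a peak at a 3′ end can still reach into the gene or to its start. For 1262 of 1262 transcripts that were nearest to more than 1 peak, the midpoints and distances gave the same exon 1 position within 2 bp.

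The Eed+/+ cells were wild-type C57BL/6 embryonic stem cells and the Eed-/- cells were C57BL/6 embryonic stem cells without the gene Eed, both grown in serum medium with leukaemia inhibitory factor and, per the study's methods, on a feeder layer of embryonic fibroblasts. Of 9 labelled samples, 1 was RING1B chromatin from Eed+/+ cells, 3 were RING1B chromatin from Eed-/- cells and 3 were Eed+/+ input DNA. The remaining pair was CBX7 chromatin, not analysed here, and its Eed-/- sample carries a wild-type source name beside an Eed-/- genotype. The Eed-/- tags were pooled before peaks were called, the labels do not name the Eed-/- line, and no value below has a replicate error or a test. The lists rest on 16814546 mapped tags in Eed+/+ and 70343706 in Eed-/-, a ratio of 4.18, and every peak held more than 100 tags.

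RING1B is the catalytic subunit of the Polycomb repressive complex PRC1, which attaches ubiquitin to histone H2A. EED is a core subunit of PRC2, the complex that methylates histone H3 at lysine 27, a mark that the CBX proteins of one form of PRC1 bind. In mESCs Polycomb complexes sit mostly on CpG islands, stretches rich in CG dinucleotides that are found at many gene starts and, less often, inside genes and at their ends. Genes of embryonic development, homeobox genes among them, are classical targets, and in several of them the island or a Polycomb domain runs across the whole gene.

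The CG dinucleotides of some of these peaks are shown first, because the CG density of the Eed+/+ peaks differed with the presence of an Eed-/- peak. Each line gives the 30 bases with the most CG dinucleotides, on the + strand of mm9 (NCBIM37), with every CG in capitals. Where a peak of the other genotype overlapped, the bases come from the interval that both peaks covered. The Foxc1, Pitx3 and Adamtsl5 sites were 3′ end peaks in both lists, with 8, 7 and 7 CG in the window, and the Otp site, a 3′ end peak in Eed+/+ with an Eed-/- peak over it, held 9.
Foxc1, chr13:31903181-31903210: CGCGCGccccCGcccCGCGgcCGccctcCG
Elovl3 and Pitx3, chr19:46210548-46210577: ttagCGgcCGgCGgCGgccCGggcaCGgCG
Adamtsl5, chr10:79805650-79805679: tcacCGgCGtCGCGgaacaCGCGctgcaCG
Otp, chr13:95653578-95653607: cCGcCGCGCGcCGccCGctgCGccCGggCG
The next windows come from Eed+/+ peaks that no Eed-/- peak overlapped and that touched no CpG island, and they held 7, 6 and 4 CG.
Cdx2, chr5:148111400-148111429: CGgcaaCGcatagcaacCGCGcCGcCGgCG
Zic4, chr9:91281948-91281977: CGCGttaggctCGccatggaaatgCGCGCG
Hoxc10, chr15:102801341-102801370: gttcaatatgtatttgaCGCGagagCGcCG
The last windows come from Eed-/- peaks without an Eed+/+ peak, with 3, 2 and 9 CG.
Ugt1a1, chr1:90114800-90114829: acaagggggcaccacacctgCGccCGgcCG
Rnf41, chr10:127878418-127878447: gttgaatttgttgacctttatCGtgcacCG
Dapk3, chr10:80655206-80655235: gCGaCGgCGgctgCGCGcCGCGCGcctgCG
The windows overlap in their counts. Other Eed+/+ peaks without an Eed-/- peak, which do touch an island, held up to 8 (100040218), and the overlapped Nxph4 and Zfp503 sites held 5. The Ugt1a1 and Rnf41 windows held fewer CG than the other sites shown, whereas that of Dapk3 did not.

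The 3′ end and the nearest start often belonged to different genes. The GENCODE annotation of the same build was searched for a 3′ UTR at the midpoint or a transcript end up to 1000 bp before it. Coding transcripts and any transcript of the nearest gene were accepted. Such a 3′ end was found for 34 of 36 Eed+/+ midpoints and 14 of 14 Eed-/- midpoints. The gene of the 3′ end bore the name of the nearest-start gene at 22 of 36 Eed+/+ peaks and 9 of 14 Eed-/- peaks. Thus the Eed+/+ peak listed under Bub3, a mitotic checkpoint gene, lay 659 bp past the end of the homeobox gene Hmx2. The peak listed under Ankrd33 lay 696 bp past the end of Scn8a, which encodes a neuronal sodium channel, and the peak listed under Pth2 lay 547 bp past Slc17a7, which encodes a vesicular glutamate transporter. In Eed-/- the peak listed under Smad2 lay in the 3′ UTR of Zbtb7c, and the peak listed under Smarcc2, a chromatin remodelling subunit, lay 293 bp past the end of Rnf41, a ubiquitin ligase gene. The unassigned Eed+/+ peaks were those of Vax2os1, an RNA antisense to Vax2, and of the gene listed as 100040218. The latter peak held an annotated start of Wnt5a, which encodes a Wnt ligand.

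Homeobox genes made up much of the Eed+/+ set. By the nearest gene, 13.9% of the 36 peaks lay at Hox cluster genes, against 3.03% of the 2307 Eed+/+ peaks on chromosomes 1 to 19, and 22.2% lay at other homeobox genes, against 9.28%. With every gene of the 3′ end also counted, 11 peaks belonged to homeobox genes outside the clusters, at Barhl1, Dlx1, Dlx2, Hmx1, Cdx2, Hmx2, Otx1, Tlx3, Pitx1, Otp and, in the peak listed under Elovl3, Pitx3. Hox cluster genes had 5, at Hoxd3, Hoxc12, Hoxc10, Hoxc6 and Hoxc5. Zinc finger genes of development had 4, at Prdm12, Zic4, Osr1 and Zfp503, 11.1% of the 36 against 4.25% of all Eed+/+ peaks. The forkhead list had 1 (Foxc1), the bHLH list 1 (Lyl1) and the Wnt list 1 (Wnt10a). Each is 2.78% of the 36, against 1.95%, 2.30% and 1.82% of all Eed+/+ peaks. The 100040218 peak, also at the 3′ end of a Wnt5a transcript not annotated as coding, was not counted. No Eed+/+ peak at a 3′ end belonged to the Pax, Sox, T-box, GATA or nuclear receptor lists. These held 0.910%, 0.737%, 1.04%, 0.564% and 1.13% of all Eed+/+ peaks. A single peak is 2.78% of the 36, so these absences do not set the 3′ ends apart. Of the 14 Eed-/- peaks, 3 lay at homeobox genes (Bsx, Nkx2-3 and Pitx3), 1 at a Hox gene (Hoxa10, listed under Hoxa9), 3 at zinc finger genes and 1 at Foxc1. By the nearest gene alone, homeobox genes outside the clusters had 2 of the 14 (14.3%), against 7.97% of all 1781 Eed-/- peaks. Zinc finger genes had 2 (14.3%), against 3.71%. Hox genes and forkhead genes had 1 each, against 1.57% and 1.63%. Each of the 14 peaks is 7.14% of its set.

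An Eed-/- peak overlapped 20 of the 36 Eed+/+ peaks at 3′ ends by at least 1 bp, 55.6% with an exact binomial interval of 38.1% to 72.1%. Over all 2307 Eed+/+ peaks on these chromosomes the share was 53.7%, and over the 1181 peaks within 1000 bp of a start it was 59.7%. Conversely, 11 of the 14 Eed-/- peaks lay under an Eed+/+ peak, 78.6% with an interval of 49.2% to 95.3%, against a background of 73.8% over all 1781 Eed-/- peaks and 73.0% over the 1047 near a start. Both shares at 3′ ends were thus near the share of the whole list, with intervals that span more than 30 percentage points (the plot of shares). These intervals cover counting error only.

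**Figure D1:**
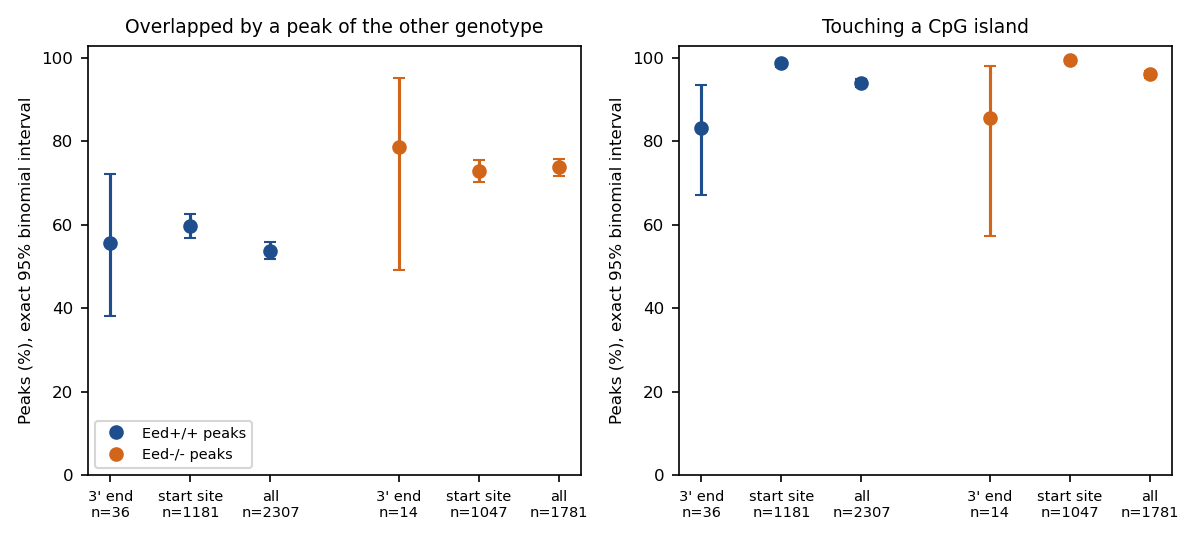
The left panel plots the percentage of peaks overlapped by a peak of the other genotype, and the right panel the percentage touching a CpG island, for peaks at 3′ ends, peaks within 1000 bp of a start and all peaks on chromosomes 1 to 19, with exact 95% binomial intervals as bars. At 3′ ends 55.6% of Eed+/+ peaks and 78.6% of Eed-/- peaks were overlapped, near the 53.7% and 73.8% of all peaks, and the island shares were 83.3% and 85.7%, against 94.1% and 96.1%.

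The midpoints of overlapping peaks often differed in location. The Eed-/- midpoint also met the 3′ end rule at 3 of the 20 overlapped Eed+/+ peaks, at Foxc1, Elovl3 and Adamtsl5. In the other pairs it lay in a coding exon 10 times, in an intron 4 times and outside genes 3 times, and 5 of the 20 Eed-/- peaks lay within 1000 bp of exon 1. The Eed-/- midpoint was displaced towards the start of the gene in 16 of 20 pairs, by a median of 664.0 bp in either direction and a range of 41 to 3542 bp over all 20. The Eed+/+ midpoints were chosen for lying at the 3′ end, which bears on both the count of 3 and that direction. In the Eed-/- set, chosen in the same way, the Eed+/+ midpoint was displaced towards the start in 8 of 11 pairs. Of the 11 Eed+/+ partners of Eed-/- peaks, 6 had their midpoint in a coding exon, 1 in an intron, 1 outside genes and 3 at the 3′ end.

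RING1B levels were lower in Eed-/- at every 3′ end peak that a peak of the other genotype overlapped, as at all overlapping peaks. The level is the number of tags per kb of peak per 1000000 mapped tags, without subtraction of input. Each level was taken over the peak's own interval, so the levels of a pair do not cover the same bases. In the 20 pairs the Eed+/+ level had a median of 7.64 (quartiles 6.13 and 8.34) and the overlapping Eed-/- peak 1.49 (1.26 and 1.66). It was lower in Eed-/- in 20 of 20 pairs, which carries no weight for 3′ ends because it was lower in 100% of the 1240 overlapping pairs. The ratio of the Eed-/- to the Eed+/+ level had a median of 0.199 with quartiles of 0.176 and 0.247, against 0.225 (0.178 and 0.303) over all 1240 pairs and 0.232 over the 705 pairs near a start. The quartile ranges overlapped. Where several Eed-/- peaks overlapped, the one with the longest shared interval was used. The ratio was lowest at Otx1 (0.117), Foxc1 (0.129), Zfp503 (0.130), Hoxd3 (0.158) and Otp (0.175). It was highest at Nxph4 (0.462), Zmynd10 (0.368), Adamtsl5 (0.361), Barhl1 (0.298) and Prdm12 (0.259). At Otx1 another overlapping Eed-/- peak had the higher level of 2.14, so its place as lowest depends on that choice.

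**Figure D2:**
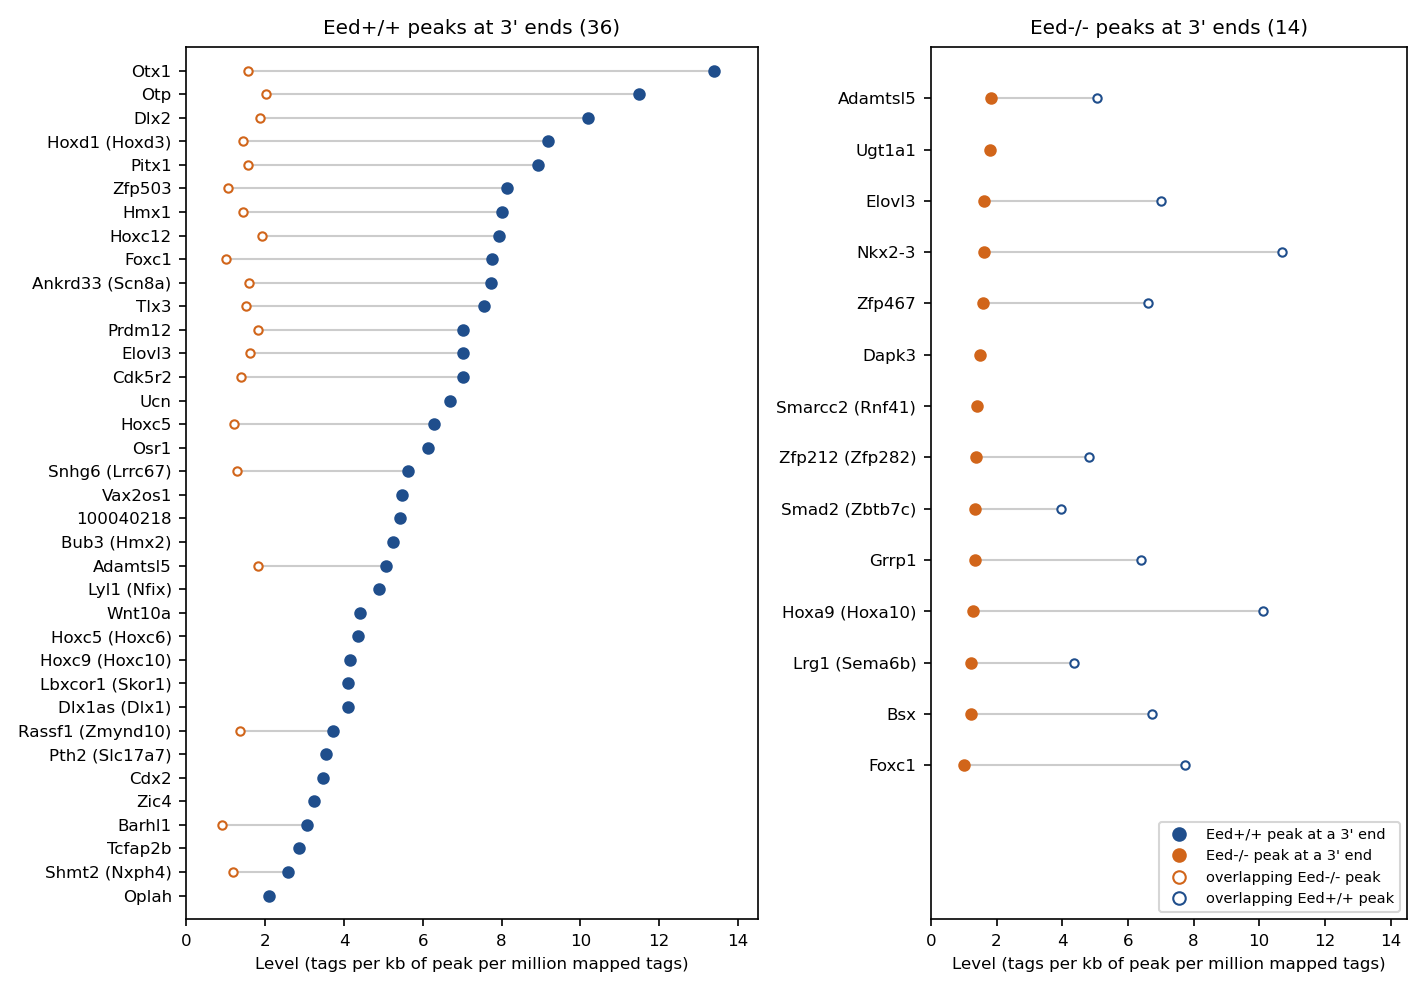
The x axis plots the level of each peak in tags per kb of peak per 1000000 mapped tags, on a linear scale, for the 36 Eed+/+ peaks (left) and the 14 Eed-/- peaks (right) at 3′ ends, with the gene of the 3′ end in brackets where it is not the nearest gene. A line joins a filled point to the open point of the overlapping peak with the longest shared interval, and every Eed-/- point lies to the left of its Eed+/+ partner.

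The rule was met in both genotypes at 3 loci, Foxc1, Elovl3 and Adamtsl5. Foxc1 encodes a forkhead factor of mesoderm and eye development. Its Eed+/+ peak (chr13:31902158-31904337, 2180 bp) had 284 tags, a level of 7.75 and 31.91 as its fold enrichment. The Eed-/- peak (1709 bp) lay inside it with 120 tags, a 4.38 fold enrichment and a level of 0.998, the lowest of the 14 Eed-/- peaks. Elovl3, a fatty acid elongase gene, and Pitx3, a homeobox gene of midbrain dopamine neurons and the lens, end towards each other on chromosome 19. The Eed+/+ peak there (chr19:46209931-46212379, 2449 bp, level 7.02, fold enrichment 21.22) fell wholly inside the Eed-/- peak (2609 bp, level 1.61, fold enrichment 5.21), and it held an annotated start of Pitx3. At Adamtsl5, which encodes a secreted protein related to the ADAMTS proteases, the Eed+/+ level was 5.06 over 2878 bp and the Eed-/- level 1.83 over 2138 bp, the highest of the Eed-/- peaks.

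The 5 widest of the 20 overlapped Eed+/+ peaks lay at homeobox genes, each over narrower Eed-/- peaks, and 4 of them were overlapped by more than 1 Eed-/- peak. The widest of the 36 lay at Hmx1, a homeobox gene of sensory organs (chr5:35728688-35743211, 14524 bp, 1955 tags, fold enrichment 45.25, level 8.01), and 3 Eed-/- peaks lay inside it with widths of 3241, 2814 and 1907 bp and levels of 1.45, 1.56 and 1.63. The Tlx3 peak, at a homeobox gene of spinal cord neurons (chr11:33096172-33106286, 10115 bp, level 7.56), held 1 Eed-/- peak of 5203 bp with a level of 1.52. Dlx2, a homeobox gene of forebrain interneurons, had an Eed+/+ peak of 9447 bp (chr2:71376062-71385508) with the highest fold enrichment of the set, 59.11, and a level of 10.2. Its Eed-/- peaks of 2159 and 1230 bp, with levels of 1.87 and 1.66, both lay in the part on the side of the gene start. Otx1, a forebrain homeobox gene, had the highest Eed+/+ level, 13.4 over 6343 bp (chr11:21892633-21898975), and Eed-/- peaks with levels of 1.57 and 2.14. Otp, a hypothalamic homeobox gene, followed with 11.5 over 5381 bp (chr13:95651071-95656451) and Eed-/- peaks with levels of 2.02 and 2.00. Over the 20 pairs the Eed-/- peak with the longest overlap was wider than its partner in 4 and lay wholly inside it in 15, with a median width ratio of 0.707 against 0.834 over all 1240 pairs.

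The other Eed+/+ peaks of high fold enrichment with an Eed-/- partner lay at Hoxc12, Pitx1 and Hoxd3. Hoxc12, a posterior Hox gene, had a peak from before its start to past its end (chr15:102766966-102771243, 4278 bp, fold enrichment 50.54, level 7.94), and the Eed-/- peak of 1126 bp lay at the start side with a level of 1.93. At Pitx1, a homeobox gene of the hindlimb and pituitary, the level was 8.93 and the fold enrichment 46.42 over 3630 bp, and the Eed-/- peak, the narrowest partner at 987 bp, had a level of 1.57. The peak in the 3′ UTR of Hoxd3, listed under Hoxd1, had a level of 9.18 and a 37.6 fold enrichment, against 1.45 in Eed-/-. Cdk5r2, which encodes an activator of the neuronal kinase Cdk5, had 7.01 against 1.38, and Prdm12, a gene of pain-sensing neurons, had 7.03 against 1.82. The Snhg6 (5.62 against 1.28), Scn8a (7.72 against 1.60) and Hoxc5 (6.29 against 1.20) pairs lay within the same range. The lowest Eed+/+ levels among the pairs were at Nxph4, which encodes a neurexophilin, with 2.58 against 1.19, and at Barhl1 with 3.07 against 0.914. Next was Zmynd10, a gene of motile cilia listed under Rassf1, with 3.71 against 1.37. The Zmynd10 peak also held an annotated coding start of Rassf1.

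No Eed-/- peak overlapped the other 16 Eed+/+ peaks at 3′ ends. Osr1, a zinc finger gene of kidney and heart development, had the highest fold enrichment of these, 36.43 (chr12:9585260-9590703, 5444 bp, level 6.13), followed by the peak of 100040218 with 24.17 and Vax2os1 with 23.57. Ucn, which encodes the neuropeptide urocortin, had 22.28 and the highest level of the group, 6.68 over 3527 bp. Tcfap2b, which encodes an AP-2 factor of neural crest and kidney, had 18.71 with a level of 2.86 in its 3′ UTR (chr1:19224550-19227313), 22415 bp from the nearest annotated start. Zic4, Wnt10a and Skor1 (listed as Lbxcor1) had 18.65, 18.36 and 17.33. The remaining peaks lay at Hmx2, Cdx2, Hoxc6, Nfix, Slc17a7, Dlx1, Hoxc10 and Oplah, with Oplah the lowest in both fold enrichment (4.15) and level (2.09). In this group the level had a median of 4.25 (quartiles 3.53 and 5.29), below the 7.64 of the overlapped group, and 14 of the 20 overlapped peaks had a level above all 16. The same order held over all peaks, with medians of 4.03 without and 5.78 with an Eed-/- peak. Widths were alike, with medians of 3620 and 3642 bp. At the Eed-/- depth, 100 tags over these 16 intervals correspond to between 4.26% and 21.2% of the Eed+/+ level, next to the ratios of 0.117 to 0.462 in the 20 pairs. The part of depth and of the tag minimum in the missing overlaps was not tested.

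Many Eed+/+ peaks at 3′ ends had another Eed+/+ peak close by. Another Eed+/+ peak lay at most 1000 bp away from 19 of 36 (52.8%, interval 35.5% to 69.6%), against 12.8% of all Eed+/+ peaks, whereas 2 of 14 Eed-/- peaks had such a neighbour (14.3%), against 7.13% of all. The 3′ end peak of Cdx2, a homeobox gene of trophectoderm and intestine, lay 19 bp from an Eed+/+ peak of 4679 bp over the gene (level 11.2, fold enrichment 48.01), compared with its own level of 3.48. The gap was 27 bp at Hmx2 (levels 5.24 and 10.1), 59 bp at Zic4 (3.24 and 6.01), 120 bp at Skor1 (4.10 and 14.7) and 304 bp at Dlx1 (4.10 and 7.98). Of the 16 peaks with no Eed-/- peak over them, 11 had such a neighbour. In 7 of these 11 an Eed-/- peak overlapped the neighbour (63.6%, interval 30.8% to 89.1%). That interval holds the 53.7% of all Eed+/+ peaks. At Cdx2, Hmx2 and Hoxc6 an Eed-/- peak lay within 1000 bp of the Eed+/+ 3′ end peak, at 46, 242 and 176 bp. When Eed+/+ peaks at most 1000 bp apart were joined, a choice made after the gaps were seen, the 36 peaks fell into 35 domains with a median span of 8371 bp, and 26 of them (74.3%, interval 56.7% to 87.5%) were overlapped by an Eed-/- peak. Over all 2143 joined domains the share was 56.4%, but these had a median span of 2697 bp, and 6.11% of them joined 2 or more peaks, against 51.4% of the 35. Joining can only add overlaps and a wider interval has more room for one, so the shares are not matched for size.

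**Figure D3:**
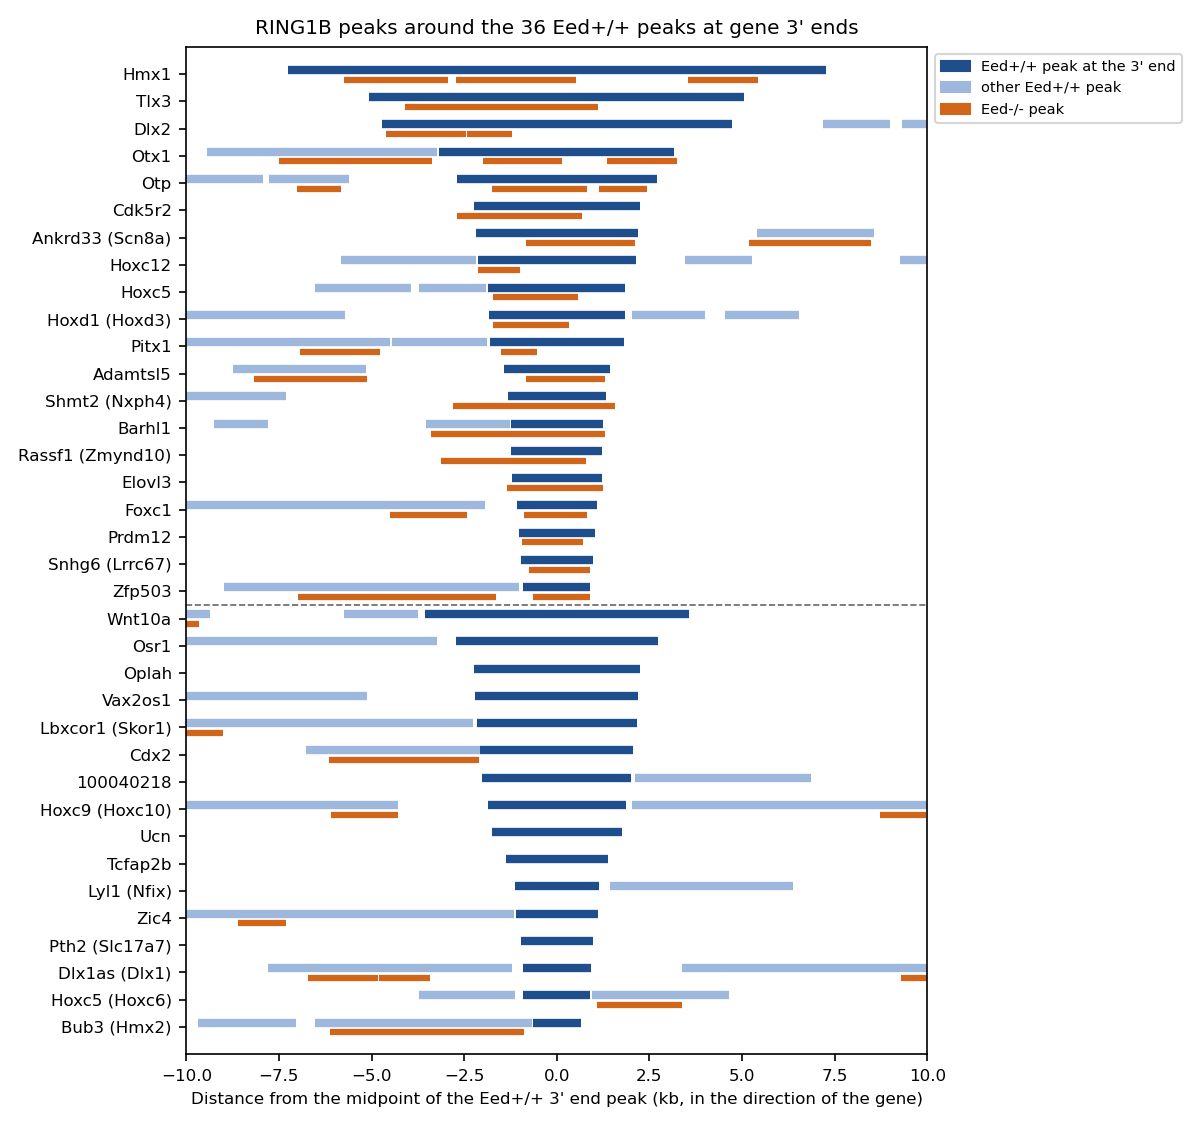
Each row is 1 of the 36 Eed+/+ peaks at 3′ ends (dark blue), and the x axis gives the distance from its midpoint in kb in the direction of the gene, with other Eed+/+ peaks in light blue and Eed-/- peaks in orange. Above the dashed line are the 20 peaks overlapped by an Eed-/- peak and below it the 16 that were not, and the small gaps to a light blue peak show the 19 peaks with an Eed+/+ neighbour at most 1000 bp away.

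Most Eed+/+ genes with a peak at the 3′ end also had a peak at a start, a share that was not computed for other peaks. Starts here were those of coding transcripts. Of the 34 Eed+/+ genes with an assigned 3′ end, 28 (82.4%, interval 65.5% to 93.2%) had an Eed+/+ peak within 1000 bp of such a start. At 8 of these the 3′ end peak itself reached that far. A separate Eed+/+ peak lay at the start of 23 of the 34 (67.6%, interval 49.5% to 82.6%). An Eed-/- peak lay at the start of 22 of the 34. The exceptions without an Eed+/+ peak at the start were Lrrc67, Slc17a7, Zmynd10, Oplah, Scn8a and Elovl3. Where a separate Eed+/+ peak lay at the start, taking the one of highest level, the 3′ end had the lower level in 16 of 23 genes, with a median ratio of 0.799 (quartiles 0.589 and 1.20). In Eed-/- it was lower in 4 of 7 genes, with a median of 0.932 (0.856 and 1.28). The 3′ end was lowest relative to the start at Skor1 (4.10 against 14.7) and Cdx2 (3.48 against 11.2). It was highest, after Hoxc12, at Adamtsl5 (5.06 against 2.65) and Otx1 (13.4 against 8.31). At Hoxc12 (7.94 against 3.48) the 3′ end peak itself covered the start, and the peak it was set against lay 31 bp away. The 3′ end peaks of Hoxd3 and Hoxc5 also reached a start, and the Hoxc5 start peak was the Hoxc6 3′ end peak. These genes are among the 23, but their ratios do not set an end against a start. Also of the 23, the Adamtsl5 3′ end peak lay 783 bp from a start of an Adamtsl5 transcript not annotated as coding. The Nfix 3′ end peak held such a start of Nfix. The ratios of Adamtsl5 and Nfix set the 3′ end against a coding start only. Of the 14 assigned genes whose 3′ end peak had no Eed-/- partner, 12 had an Eed+/+ peak and 8 an Eed-/- peak at the start. Wnt10a, which encodes a Wnt ligand, was 1 of the 8, whereas Tcfap2b, Osr1 and Hoxc6 had a separate peak at the start in Eed+/+ without one in Eed-/-. Ucn, counted among the 12, had no Eed-/- peak at the start either, and its Eed+/+ peak there was the 3′ end peak itself. Slc17a7 and Oplah had none in either genotype. Of the 14 Eed-/- genes, 8 (57.1%) had an Eed-/- peak at the start, and in 7 it was separate from the 3′ end peak. An Eed+/+ peak lay at the start of 9.

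The Hox clusters contributed 5 Eed+/+ peaks, of which 3 were overlapped in Eed-/- (60.0%, interval 14.7% to 94.7%), against 53.7% of all Eed+/+ peaks. Within the HoxC cluster, Hoxc12 and Hoxc5 had an Eed-/- partner, whereas the peaks past the ends of Hoxc10 (chr15:102801221-102804934, level 4.15) and Hoxc6 (chr15:102842307-102844109, level 4.35) had none. These last peaks touched no CpG island and had the lowest CpG density of the 36, together with the Dlx1 peak. The peak past Hoxc6 also lay 137 bp from an annotated start of Hoxc5. The peak past Hoxc10 held Mir196a-2, a microRNA gene that targets Hox transcripts. In the HoxA cluster the Eed-/- peak lay 850 bp past the end of Hoxa10 (chr6:52179566-52181127, level 1.29) inside an Eed+/+ peak of 2846 bp with a level of 10.1, whose midpoint did not meet the rule.

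CpG islands lay under most of these peaks. An island was touched by 30 of 36 Eed+/+ peaks (83.3%, interval 67.2% to 93.6%), against 94.1% of all, and by 12 of 14 Eed-/- peaks (85.7%, interval 57.2% to 98.2%), against 96.1%, which lies inside that interval. The Eed+/+ share was 98.7% near starts. Among the remaining peaks, neither at a 3′ end nor near a start, it was 89.4% in Eed+/+ and 91.2% in Eed-/-. Both values lie inside the intervals at 3′ ends. The Eed+/+ peaks off islands lay at Dlx1, Cdx2, Zic4, Zfp503, Hoxc10 and Hoxc6, and an Eed-/- peak overlapped the Zfp503 peak alone among them. An island was touched by 19 of the 20 overlapped peaks and by 11 of the other 16, and over all Eed+/+ peaks by 1233 of 1240 and by 937 of 1067. The density of CG dinucleotides had a median of 4.56 per 100 bp (quartiles 4.17 and 5.41) in the overlapped peaks and 2.81 (2.65 and 3.84) in the others, and over all Eed+/+ peaks 5.50 and 4.38. Thus the lower density of peaks without an Eed-/- partner was found at 3′ ends and in the whole list. The densities at 3′ ends were lower than those of the whole list in both classes. Those of the remaining Eed+/+ peaks, neither at a 3′ end nor near a start, lay between, with 5.085 and 3.841. The GC content was 56.8% and 52.5%, with 41.9% in the genome.

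**Figure D4:**
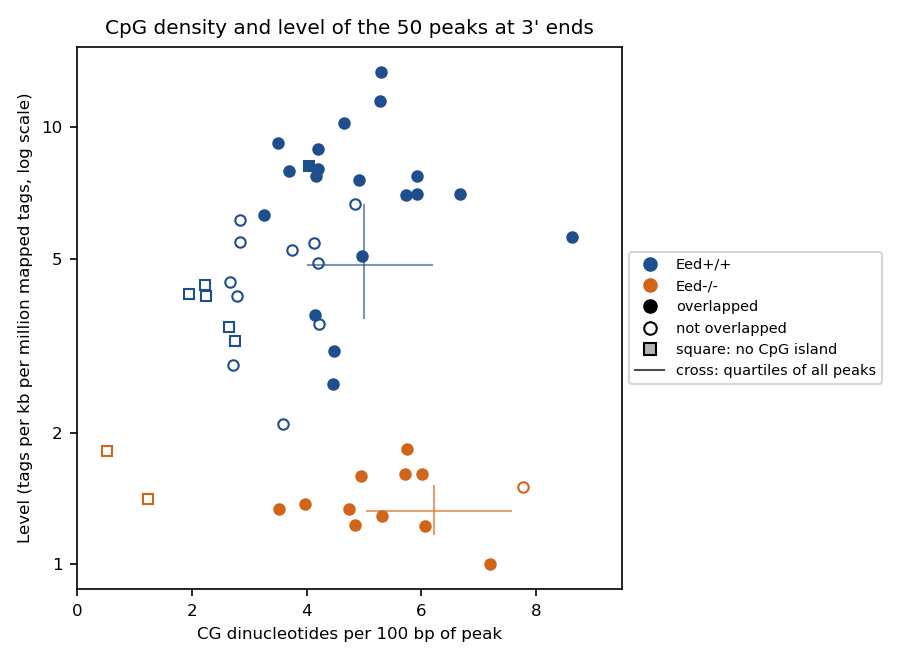
The x axis plots CG dinucleotides per 100 bp and the y axis the level in tags per kb per 1000000 mapped tags on a log scale, for 36 Eed+/+ (blue) and 14 Eed-/- (orange) peaks at 3′ ends, with crosses for the median and quartiles of all peaks of each list. Filled points are overlapped by a peak of the other genotype and squares touch no CpG island, and the open blue points lie mostly at the left, with a median density of 2.81 against 4.56 for the filled ones.

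Among the Eed-/- peaks, 3 had no Eed+/+ peak over them. The Ugt1a1 peak (chr1:90114580-90118444, 3865 bp) lay 940 bp past the shared 3′ end of the Ugt1a genes, which encode enzymes that conjugate bilirubin and drugs with glucuronic acid. It had 493 tags, a level of 1.81 and a fold enrichment of 4.21, touched no island, and had a GC content of 41.1% and 0.517 CG per 100 bp, close to the GC content of the genome. Further Eed-/- peaks lay 829 bp away and at an annotated start of Ugt1a1. The nearest Eed+/+ peak was 478762 bp away. The Rnf41 peak (chr10:127878260-127879314) was the narrowest Eed-/- peak of the set, 1055 bp with 105 tags, yet had its highest fold enrichment, 11.24, with a level of 1.41, no island and 1.23 CG per 100 bp. The Dapk3 peak, in the 3′ UTR of a death-associated protein kinase gene (chr10:80654964-80656454), had 157 tags, a level of 1.50 and a 4.92 fold enrichment, and was the densest in CG of the Eed-/- set, 7.78 per 100 bp. None of the 3 genes had an Eed+/+ peak at an annotated start.

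The 11 Eed-/- peaks with an Eed+/+ partner had levels between 0.998 and 1.83, and their partners between 3.96 and 10.7. The largest partners were at Nkx2-3, a homeobox gene of gut and spleen (Eed+/+ 10.7 over 8596 bp, Eed-/- 1.61 over 3676 bp inside it), Hoxa10 (10.1 and 1.29) and Foxc1 (7.75 and 0.998). Bsx, a hypothalamic homeobox gene, had 6.74 and 1.22, Zfp467 6.61 and 1.59, and Grrp1, with the widest Eed-/- peak (4083 bp), 6.39 and 1.34. The smallest were at Zfp282 (4.83 and 1.37), Sema6b, which encodes a semaphorin (4.37 and 1.23), and Zbtb7c (3.96 and 1.34). The ratio had a median of 0.230 with quartiles of 0.165 and 0.283, beside 0.225 over all pairs.

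The median width was 3642 bp (quartiles 2254 and 4414) in the 36 Eed+/+ peaks and 2670 bp (2151 and 3590) in all 2307, and 2272 bp (1735 and 2810) in the 14 Eed-/- peaks and 2163 bp (1684 and 2836) in all 1781. The exact interval of the Eed+/+ median, 2455 to 4306 bp, holds the value of the whole list, and the median was 2654 bp over the 19 Eed+/+ peaks with no annotated start within 1000 bp. The median level was 5.54 (4.10 and 7.73) against 4.83 (3.66 and 6.64) in Eed+/+ and 1.39 (1.30 and 1.60) against 1.32 (1.17 and 1.51) in Eed-/-, and fold enrichment 21.66 against 16.04 and 4.68 against 4.90. The quartile ranges overlapped in all of these. The FDR was 0 to 0.04% for the 36 Eed+/+ peaks and 0.45% to 1.65% for the 14 Eed-/- peaks, of which 3 had 1% or less.

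An annotated start of some gene lay within 1000 bp of 17 of the 36 Eed+/+ and 7 of the 14 Eed-/- peaks, counting neighbouring, antisense and noncoding genes, and 15 and 4 of them contained it. An Eed-/- peak overlapped 10 of the 17 Eed+/+ peaks near such a start and 10 of the 19 away from it. The peaks away from every start included Otx1, Otp, Pitx1, Foxc1, Prdm12 and Scn8a. The summit, the point of most tags, also lay at an annotated 3′ end in 20 of 36 Eed+/+ and 7 of 14 Eed-/- peaks. By the deposited location, 14 Eed+/+ peaks lay in a 3′ UTR and 22 downstream of a gene end, and an Eed-/- peak overlapped 8 of the 14 and 12 of the 22.

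At the 1000 bp limit, the nearest Eed+/+ peaks left out lay at Frat1 (982 bp, level 3.73), Miat (934 bp, 4.87) and Id4 (916 bp, 7.46), and those just inside at Hoxc6, Cdk5r2 (1261 bp, 7.01) and 100040218 (1323 bp, 5.43). In Eed-/- the nearest left out were Gp1bb (984 bp, level 1.51), Six3os1 (655 bp, 1.08) and Bmp1, and the nearest inside were Sema6b, Hoxa10 and Grrp1 (3032 bp, 1.34). Wnt6, which encodes a Wnt ligand, had a peak at its start in both genotypes and a further Eed+/+ peak near its 3′ end (chr1:74828283-74831544, 365 tags, level 6.65, fold enrichment 10.50), listed under Wnt10a. That peak ended 349 bp before the transcript end with its midpoint in an intron, so it did not meet the rule, and no Eed-/- peak overlapped it. The Eed+/+ peak of Tbkbp1, with its midpoint in a coding exon, did not meet the rule either. The paper reports that Eed-/- cells show a similar RING1B pattern at the Wnt6 3′ end, although MACS recorded no peak there. At Tbkbp1 it describes a pattern visible against input in Eed-/- that was not called. For such loci the paper considers its overlap between genotypes an underestimate.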

How the data were processed

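Per the labels and the study's methods, the authors sequenced RING1B ChIP and input DNA, aligned tags that had a unique position in mm9 by bowtie, and ran MACS per genotype at an FDR of 2% with more than 100 tags. Not given in the sources used here are tool versions and the control library of MACS. The deposited lists give each peak's tag count, fold enrichment ratio, FDR in percent, nearest gene and location; their columns comparing genotypes or histone marks were not used. Levels were tags per kb per 1000000 mapped tags, with the mapped tags as published. Peaks overlapped when they shared 1 bp. CpG islands were found by a running score (17 per CG, -1 otherwise; at least 200 bp, 50% GC, observed to expected ratio 0.6) in NCBIM37, with GENCODE M1 genes. Intervals are exact 95% binomial (Clopper-Pearson). With 1 list per genotype no test was made.

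The members, gene lists and alternatives were chosen with earlier results of these data known. Named genes were the 8 of highest fold enrichment among Eed+/+ peaks with and without an Eed-/- peak and among Eed-/- peaks without an Eed+/+ peak, the 3 nearest each side of the distance limit, up to 3 per gene list, the 3 widest per genotype, the 5 highest and lowest level ratios, Wnt6 and Tbkbp1. Others were chosen after their values were seen. The homeobox and bHLH name patterns were corrected after the names were seen. On simulated data 1000 of 1000 planted overlaps and 20 of 20 planted islands were found. Python 3.11.15, numpy 2.4.6, scipy 1.17.1, numba 0.67.0 and matplotlib 3.10.9 were used.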

Additional observations from a re-analysis of the deposited data

How the results depend on the processing

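Over 10 alternatives, 71 of 91 recomputed values stayed within the interval of the reported value, or within 1.5 times for a count. The number of Eed+/+ peaks, 36, was 14 with the 3′ UTR item alone, 22 with the downstream item alone, 19 without peaks within 1000 bp of any annotated start, and 20 with the summit also at an annotated 3′ end. The number of Eed-/- peaks, 14, was 7, 8, 7 and 7 in the same order. With only peaks of FDR up to 1% kept in each list it was 3, the share of Eed+/+ peaks overlapped was 16.7% (15.5% over all Eed+/+ peaks), and the shares of Eed-/- peaks overlapped and on islands were both 100%. With Eed-/- peaks held to more than 100 tags at the Eed+/+ depth, which 6.29% of all Eed-/- peaks passed, 1 Eed-/- peak was left, at Ugt1a1. It had a width of 3865 bp, a level of 1.81, 0% overlapped, 0% on islands and 100% with a peak at the start. The share of Eed+/+ 3′ end genes with a bound start was 100% with the 3′ UTR item alone, and the share of Eed+/+ peaks overlapped was 75.0% with peaks joined. The last 2 settings, the summit and the joined peaks, were added after seeing the data. The ratio in pairs ranged from 0.179 (fold enrichment) to 0.217 (overlap of 50% of both peaks). No paired analysis was possible because the lists pool the lanes of a genotype, so replicate numbers have no values, and for the same reason no replicate could be left out. Depth limits the comparison of absence: the Eed+/+ list was called at a lower depth than the Eed-/- list by a factor of 4.18.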
